A study of Mus musculus with 12 samples.

Results

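The genes described are 8 components that act at or directly beneath the Toll-like receptors. They are the co-receptor Cd14, the adaptors Myd88, Tirap and Tollip, and the kinases Irak1, Irak2, Irak3 and Irak4. They were chosen by gene name, and all 8 were found among the 545 endogenous genes of the panel. Transcripts had been counted in microglia, the resident macrophages of the brain, sorted from the hippocampus of male BALB/c pups at postnatal day 28. The BDS group (brief daily separation; 6 samples) came from pups taken from the mother for 15 min a day over postnatal days 1 to 21, and the 6 control samples came from pups labelled as controls, whose handling the labels do not describe further. The comparison addresses early life stress and the maturation of microglia. The submitters' design text places all 12 samples in different litters, and the labels name no drug or transgene for either group. The cells came from a Percoll gradient and a sort whose gating markers are not given in the sources used here.

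Toll-like receptors and the interleukin-1 receptor share a signalling domain inside the cell. For most of these receptors, ligand binding recruits the adaptor MyD88, in some cases through the bridging adaptor TIRAP. MyD88 assembles the kinase IRAK4 with IRAK1 or IRAK2, after which TRAF6 carries the signal to NF-kB and MAP kinases. IRAK3 (also called IRAK-M) and TOLLIP are known as restraints on this route, and CD14 hands lipopolysaccharide to the receptor TLR4. In microglia the route is known for driving cytokine release after microbial or damage signals.

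Total endogenous counts were 577135 to 1103445 in BDS samples and 827591 to 1341132 in control samples. All 8 genes lay above the background limit in 12 of 12 samples, where the limit is the mean of the negative-control probes plus 2 SD (15.3 to 21.8 counts). BDS 21, BDS 25 and BDS 55 had low counts of the 6 housekeeping genes, giving scaling factors of 0.609, 0.649 and 0.854. Those of BDS 7, BDS 35 and BDS 43 were 1.10, 1.02 and 1.28, and the controls spanned 0.875 to 1.47. Of the 10 microglial markers, 10 were present, with a summed level of 296926 to 393735 normalized counts in BDS and 307776 to 337912 in controls. The sum is weighted to the probes of highest count and hides opposite directions. The BDS mean was higher for Csf1r, Ctss, C1qb and Trem2. It was lower for Cx3cr1, Itgam, C1qa, Tgfbr1, Irf8 and Runx1, the last at 3081 ± 793 in BDS and 3811 ± 132 in controls (SD). Of 6 markers of blood monocytes and border macrophages on the panel, which also express Cd14, only Ccr2 was present by the rule of at least 5 samples above background, Cd163 and Spn were at background in every sample, and the summed level was 294 to 485 in BDS and 328 to 553 in controls. In these sorted bulk samples, fewer cells of a type and less RNA per cell cannot be told apart.

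Between BDS and control samples none of the 8 genes changed past the adjusted threshold of 0.05, and 5 of 8 had log2 fold changes below 0. The edgeR quasi-likelihood test over 357 genes called 0 of them (percent of tested genes called: 0). Only Irak2 had an unadjusted p under 0.05 and was lower, where 11.5% of all tested genes were lower and 0.840% higher at that level. The median log2 fold change of the 8 was -0.17, beside -0.10 over all tested genes, of which 66.1% lay below 0. Values are counts divided by the housekeeping factor of the sample ("normalized counts"), and because probes bind with unequal efficiency, levels are compared between groups for 1 gene and not between genes.

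**Figure D1:**
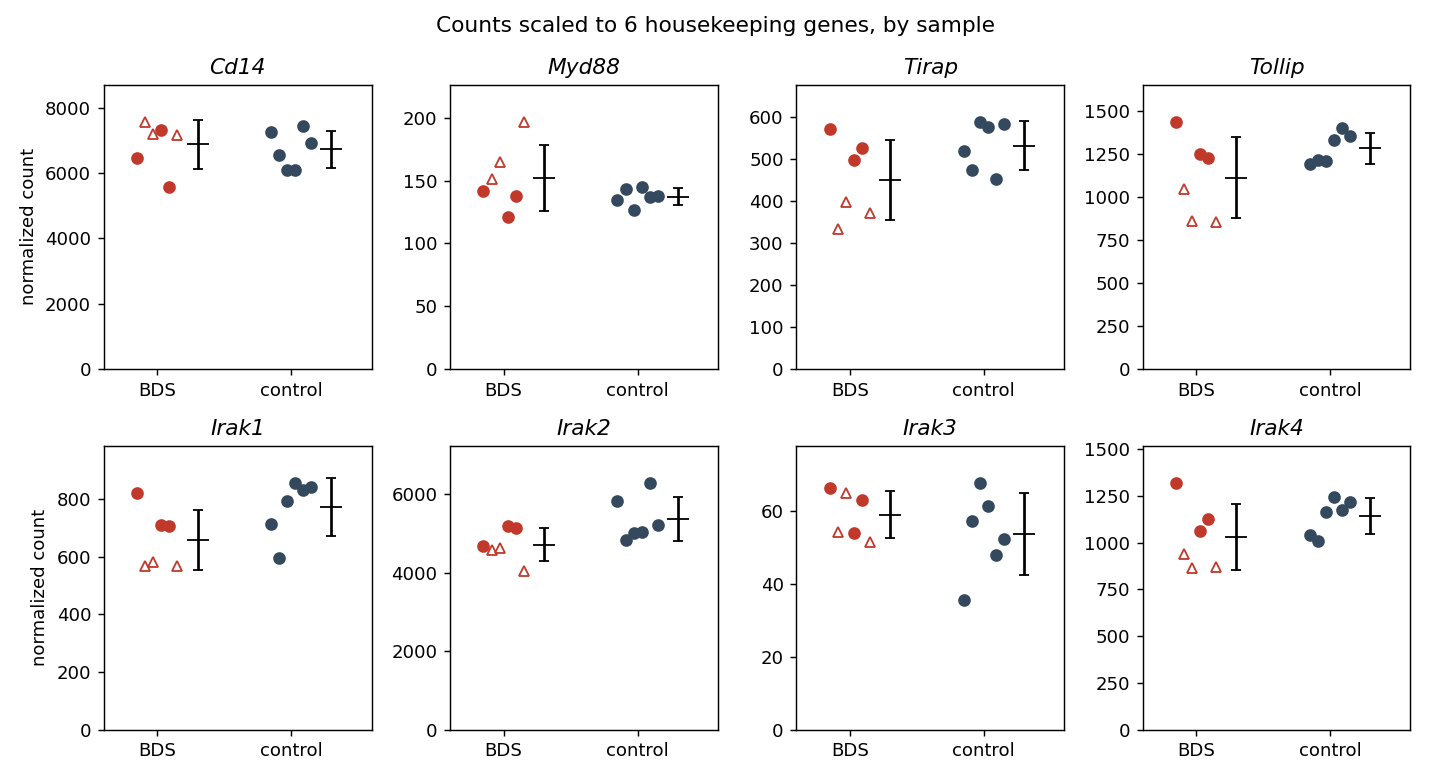
Normalized counts (vertical axes, from 0) of the 8 genes in each BDS sample (red, left) and control sample (dark, right), with the group mean and SD as a black bar; open triangles are BDS 21, BDS 25 and BDS 55. In Tirap, Tollip, Irak1, Irak2 and Irak4 the 3 open triangles lie lowest of all 12 samples, and in Myd88 they lie highest.

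Cd14, a surface protein that binds lipopolysaccharide and presents it to TLR4, had 5572, 7191 and 7573 normalized counts in BDS samples (lowest, median, highest), against 6085, 6735 and 7456 in controls. The groups overlapped almost fully, with 1 BDS sample below every control and 1 above. The log2 fold change was 0.03 ± 0.09 (SE), and its 95% interval as a fold ran from 0.898 to 1.17 (edgeR quasi-likelihood test, adjusted p = 0.836). Without BDS 21, BDS 25 and BDS 55 it was -0.06 ± 0.10.

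Myd88, the adaptor that links most Toll-like receptors and the interleukin-1 receptor to the IRAK kinases, had 121, 146 and 197 normalized counts in BDS samples, against 127, 137 and 145 in controls (lowest, median, highest). The mean was 152 ± 26.3 in BDS and 137 ± 6.46 in controls (SD, n = 6 each) and the coefficient of variation was 17.3% in BDS and 4.71% in controls. Counting error at its mean of 147.5 counts would give 8.23%. BDS 55 was highest at 197, followed by BDS 25 at 165 and BDS 21 at 151, and these 3 lay above all other samples, whose highest value was 145, and Myd88 thus stood opposite to Tirap, Tollip, Irak1, Irak2 and Irak4 in these samples. Only 4.20% of tested genes had these 3 samples above the other 9. Probe background was not subtracted from these values. The negative-control mean of a sample was 8.25 to 11.4 counts, beside raw Myd88 counts of 92, 107 and 168 in BDS 21, BDS 25 and BDS 55. Division by the small scaling factors of these samples enlarges that background, so the separation is given for unsubtracted counts only. The log2 fold change was 0.14 ± 0.13 (SE; edgeR quasi-likelihood test, adjusted p = 0.603), and it was -0.04 ± 0.12 without these 3 samples.

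Tirap, the bridging adaptor that brings MyD88 to TLR2 and TLR4 at the membrane, had 333, 448 and 572 normalized counts in BDS samples, against 453, 547 and 588 in controls. BDS 21, BDS 55 and BDS 25 had 333, 372 and 398, below every control, while BDS 7, BDS 35 and BDS 43 had 572, 498 and 527, within the control range. The log2 fold change of -0.24 ± 0.14 (SE) was the lowest of the 8 and did not pass (edgeR quasi-likelihood test, adjusted p = 0.431). Without the 3 samples it was 0.00040 ± 0.11.

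Tollip, an adaptor that binds IRAK1 and is known to hold it inactive, had 851, 1136 and 1435 normalized counts in BDS samples, against 1189, 1272 and 1397 in controls. The same 3 BDS samples lay below every control and BDS 7 lay above every control. The coefficient of variation was 21.0% in BDS and 6.90% in controls. BDS over control gave -0.20 ± 0.13 (log2 fold change with SE; edgeR quasi-likelihood test, adjusted p = 0.448), and 0.02 ± 0.09 without those 3 samples.

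Among the kinases, Irak4, which starts the phosphorylation cascade in the complex with MyD88, had 865, 1001 and 1320 normalized counts in BDS samples, against 1007, 1170 and 1245 in controls. Here too BDS 21, BDS 25 and BDS 55 were lowest, at 941, 865 and 869. For Irak4 the log2 fold change was -0.15 ± 0.11 (SE; edgeR quasi-likelihood test, adjusted p = 0.544), against 0.03 ± 0.10 without them.

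Irak1, the substrate and partner of IRAK4, had 567, 644 and 823 normalized counts in BDS samples, against 597, 812 and 857 in controls. Control 9 was the lowest control at 597, so that the 3 BDS samples at 567, 581 and 567 lay only slightly below it. Irak1 came to -0.23 ± 0.12 (log2 fold change with SE; edgeR quasi-likelihood test, adjusted p = 0.412). Without control 9 it was -0.29, and without the 3 BDS samples -0.05 ± 0.13.

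Irak2, which sustains the response in the later phase of signalling, had 4044, 4666 and 5200 normalized counts in BDS samples, against 4834, 5139 and 6300 in controls. All 6 BDS samples lay below the control mean and 4 lay below every control, but the groups overlapped. The mean was 4718 ± 426 in BDS and 5375 ± 567 in controls (SD, n = 6 each), a log2 fold change of -0.19 ± 0.09 (SE) with an interval as a fold of 0.771 to 0.999. Its unadjusted p of 0.0489 was number 43 of 357 by size and became 0.380 after adjustment (edgeR quasi-likelihood test). Of the 5 genes that were low in BDS 21, BDS 25 and BDS 55, it had the largest remaining difference without them, -0.10 ± 0.09, which did not pass (adjusted p = 0.963), beside a median of -0.09 over all genes in those 9 samples.

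Irak3, the family member known to restrain signalling from the MyD88 complex, was near the lower end of detection, with raw counts of 31 to 84. It had 51.5, 58.6 and 66.3 normalized counts in BDS samples, against 35.4, 54.8 and 67.7 in controls, and every BDS value lay inside the control range. Counting error alone at its mean of 58.5 counts would give a coefficient of variation of 13.1%, and the observed values were 10.9% in BDS and 21.0% in controls. For Irak3 the log2 fold change was 0.13 ± 0.16 (SE; edgeR quasi-likelihood test, adjusted p = 0.684). The interval as a fold, 0.865 to 1.39, was the widest of the 8.

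**Figure D2:**
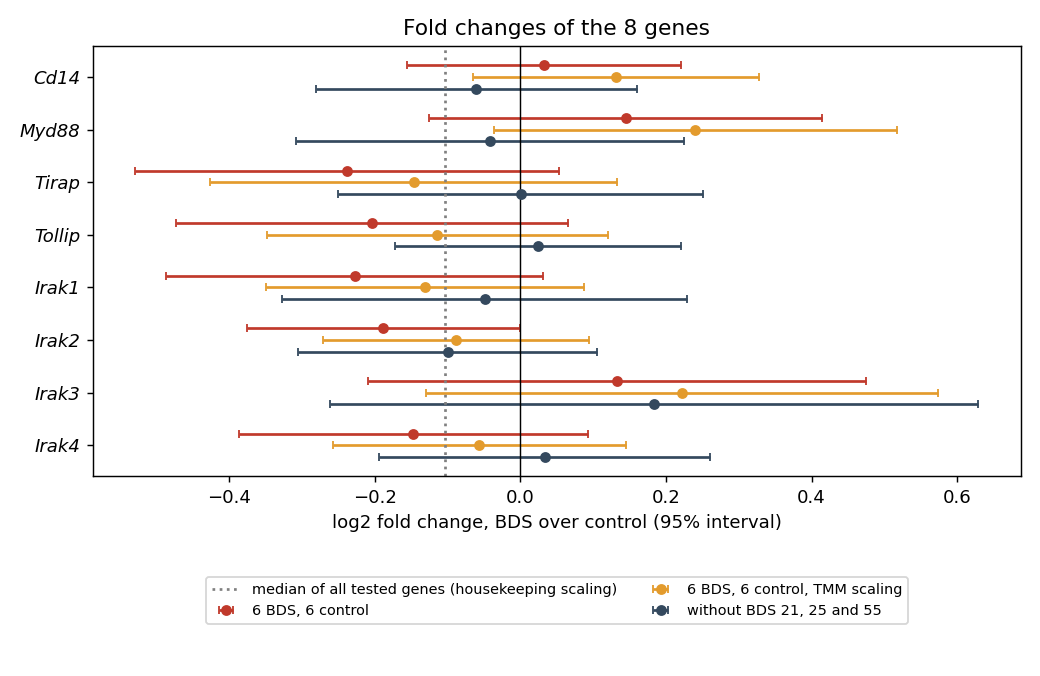
Log2 fold change of BDS over control (horizontal axis) with its 95% interval for each gene, in all 12 samples with housekeeping scaling (red), in all 12 with TMM scaling (orange) and without BDS 21, BDS 25 and BDS 55 (dark); the dotted line is the median of all tested genes. The red interval of Irak2 ends just below 0 and all others cross it; the dark points of Tirap, Tollip and Irak4 lie near 0.

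The authors' deposited table gives folds of 0.86 to 1.12 for the 8 genes, and its smallest unadjusted p among them is that of Irak2, 0.0667. Scaling by another method moved all 8 values upward. With TMM, in which the scaling comes from the bulk of the tested genes, the median of all genes was -0.01 in place of -0.10. The log2 fold changes were then 0.13 for Cd14, 0.24 for Myd88 and 0.22 for Irak3, and -0.15 for Tirap, -0.13 for Irak1, -0.11 for Tollip, -0.09 for Irak2 and -0.06 for Irak4. All 8 kept their sign, 0 had an unadjusted p under 0.05, and the smallest was that of Myd88 (unadjusted p = 0.084; adjusted p = 0.52, edgeR). At an unadjusted p under 0.05 TMM called 3.92% of all genes lower and 5.04% higher.

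BDS 21, BDS 25 and BDS 55 together lay below the other 9 samples in 5 of the 8 genes (Tirap, Tollip, Irak1, Irak2 and Irak4), where 15.7% of all tested genes did so. With TMM scaling this held for Tollip and Irak4, where 41 of 357 genes did so, and Myd88 still lay above the other 9, as 31 of 357 genes did. Neither scaling subtracts probe background. In log2 difference from the control mean, Tirap was at -0.67, -0.41 and -0.51 and Irak1 at -0.44, -0.40 and -0.44 in BDS 21, BDS 25 and BDS 55. In BDS 7, BDS 35 and BDS 43, Tirap was at 0.11, -0.09 and -0.01 and Irak1 at 0.10, -0.11 and -0.12. The part of RNA amount or quality in these values was not tested. Without these 3 samples 0 of the 8 genes had an unadjusted p under 0.05 (edgeR), where 5.52% of all tested genes were lower and 0 were higher, and 4 of the 8 had log2 fold changes below 0, beside 72.4% of all genes. In none of the 8 did all 6 BDS samples lie below every control, which 1.12% of tested genes did.

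BDS 7 had the highest value of all samples in Tollip and Irak4 (0.17 and 0.21 above the control mean, log2). When BDS 7 was left out, 4 of the 8 genes were lower at an unadjusted p under 0.05, Irak1 (0.019), Tollip (0.024), Tirap (0.028) and Irak4 (0.033), on a table in which 24.8% of genes then were. None of the 4 passed after adjustment (edgeR, adjusted p = 0.115 to 0.150), where 1.14% of genes did.

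**Figure D3:**
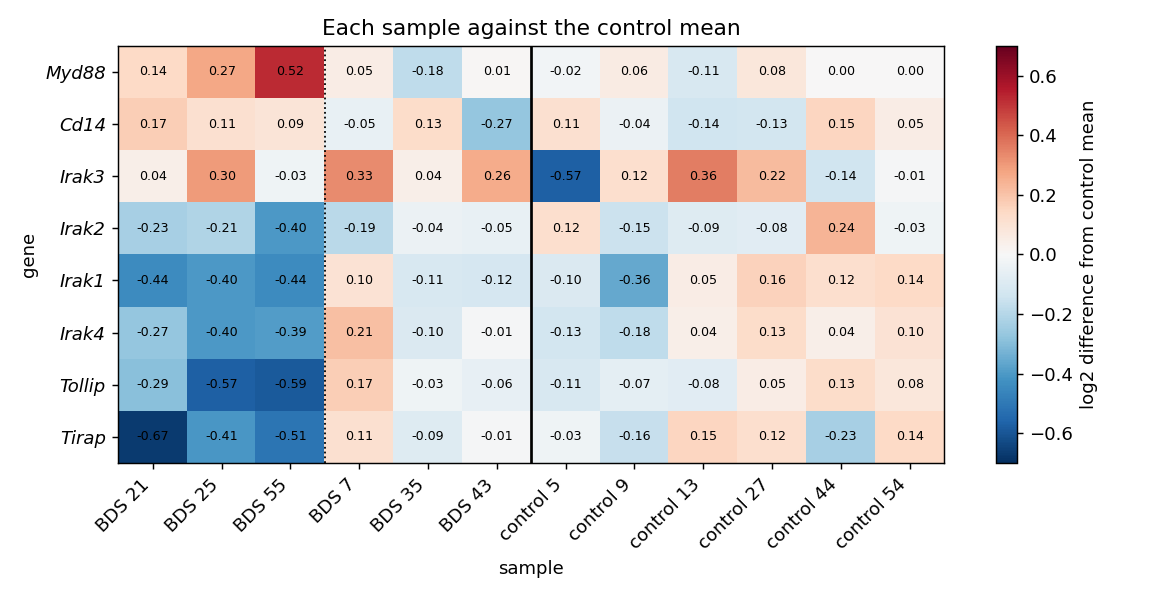
Log2 difference of each sample (columns) from the control mean, for the 8 genes (rows); red is higher and blue lower, and the solid line separates BDS (left) from control (right) and the dotted line sets off the first 3 BDS samples. The 3 columns at the far left, BDS 21, BDS 25 and BDS 55, hold the lowest values of Irak2, Irak1, Irak4, Tollip and Tirap (down to -0.67) and the highest of Myd88 (0.52).

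Ratios of 2 genes counted in the same sample do not depend on any scaling, and all 28 pairs were compared. They still depend on probe background, which was not subtracted from the ratios given here. The negative-control mean of a sample was 8.25 to 11.4 counts, beside raw counts of 31 to 84 for Irak3. The 3 pairs with the smallest p all had Irak3 on top. Irak3 over Tirap averaged -2.91 ± 0.25 in BDS and -3.33 ± 0.30 in controls (log2 ratio of raw counts, SD, n = 6 each), a difference of 0.42, or 1.34-fold higher in BDS. All 6 BDS samples lay above the control mean, and BDS 21, BDS 25 and BDS 55 lay above every control (two-sided exact permutation test, p = 0.0216). As linear ratios, BDS samples had 0.108 to 0.163 Irak3 counts per Tirap count and controls 0.0684 to 0.121. Irak3 over Irak1 differed by 0.39 (exact permutation p = 0.0455) and Irak3 over Irak4 by 0.32 (exact permutation p = 0.0519), again with 6 of 6 BDS samples above the control mean. After Benjamini-Hochberg adjustment over the 28 pairs none passed, at an adjusted p of 0.312 for each of these 3 (exact permutation test), where the smallest p this design allows is 0.00216. Without BDS 21, BDS 25 and BDS 55 the 3 differences were 0.21, 0.25 and 0.18, with an exact permutation p of 0.29, 0.29 and 0.37. The 3 ratios share Irak3, whose lowest value was control 5, and without control 5 they were 0.31, 0.30 and 0.23 (exact permutation p = 0.0519, 0.0909 and 0.123).

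**Figure D4:**
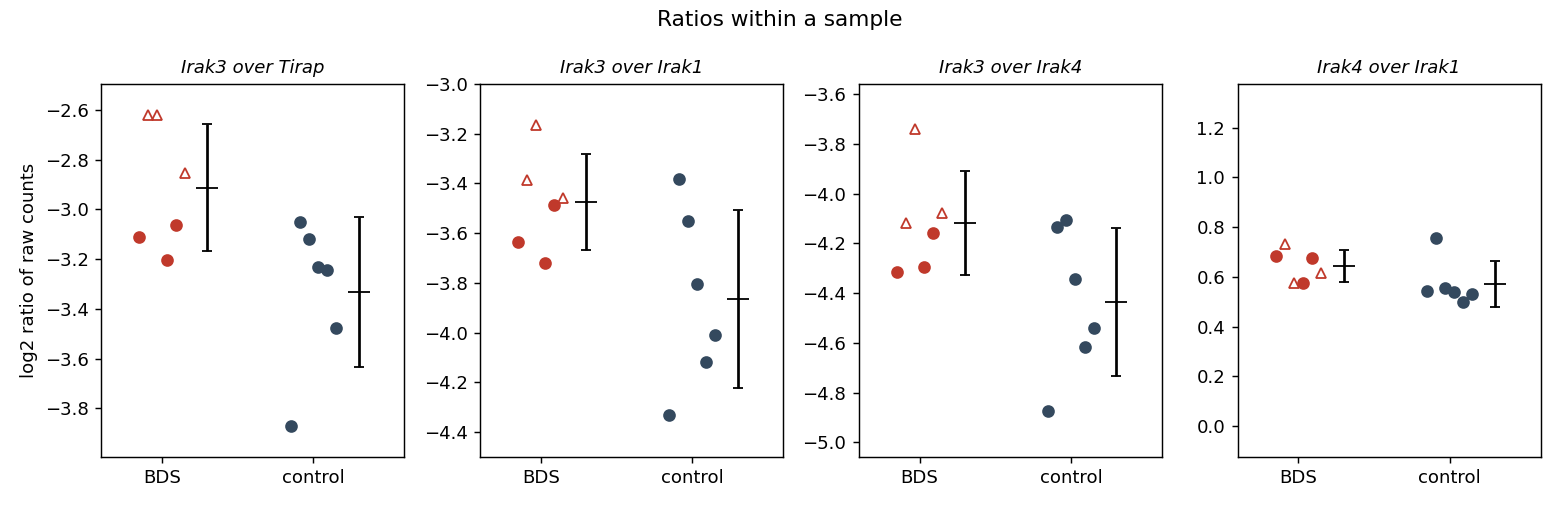
Log2 ratio of the raw counts of 2 genes within each sample, for BDS (red, left) and control (dark, right), with the group mean and SD as a black bar and BDS 21, BDS 25 and BDS 55 as open triangles; all 4 vertical axes span the same length. In the 3 ratios with Irak3 on top the BDS means lie 0.32 to 0.42 above the control means while the groups overlap, and Irak4 over Irak1 stays between 0.50 and 0.75 in all 12 samples.

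Irak4 varied in step with its partner kinase Irak1 and with the adaptor Tollip. The SD of the log2 ratio of Irak1 and Irak4 over 12 samples was 0.084, the lowest of the 28 pairs over these samples, beside 0.067 from counting error alone and a median of 0.41 over all 63546 pairs of tested genes. Only 0.105% of those pairs were steadier, and 0.26% were steadier than Tollip and Irak4 (SD 0.097). Without BDS 21, BDS 25 and BDS 55 the order of these pairs turned, with an SD of 0.078 for Tollip and Irak4 (0.379% of pairs steadier) and 0.087 for Irak1 and Irak4 (0.658%). Tollip and Irak1 varied more, with an SD over 12 samples of 0.136 against 0.066 from counting error, and 1.47% of pairs were steadier. Steadiness also rises with count, so that these shares describe the pair and its depth together. The linear ratio of Irak4 to Irak1 was 1.49 to 1.66 in BDS samples and 1.41 to 1.69 in controls, with a mean log2 difference of 0.07 (two-sided exact permutation p = 0.145; adjusted p = 0.351). With 1 sample left out the difference ranged from 0.054 to 0.11, and without BDS 21, BDS 25 and BDS 55 it was 0.073. The top of that range came without control 9, the highest control (exact permutation p = 0.00649, adjusted p = 0.101). Leaving out the highest control can only raise the difference, so that direction is fixed in advance. BDS 21, BDS 25 and BDS 55 lay below the other 9 samples in both Irak1 and Irak4. Within those 9 samples, Irak1 and Irak4 were correlated at Pearson r = 0.87 (exact permutation p = 0.0018, adjusted p = 0.0498 over 28 pairs). Spearman rho was 0.83 (exact permutation p = 0.0083, adjusted p = 0.077). Without the 2 samples farthest from the median of Irak1 r was 0.88, as deviations from group means it was 0.90, and with TMM scaling 0.68. Tollip and Irak4 had r = 0.80 and rho = 0.78 (exact permutation p = 0.013 and 0.017; adjusted p = 0.18 and 0.12). These values share the housekeeping factor of their sample.

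Over the same 9 samples, Irak3 ran against Cd14 (r = -0.72 and rho = -0.83; exact permutation p = 0.022 and 0.0083) and against Irak2 (r = -0.75 and rho = -0.83; exact permutation p = 0.027 and 0.0083). Neither passed after adjustment over 28 pairs (Pearson adjusted p = 0.19 for both, Spearman adjusted p = 0.077 for both). Leaving out the 2 samples farthest from the median gave r = -0.76 for Cd14 and Irak3 and -0.54 for Irak2 and Irak3, and with TMM scaling r was -0.46 and -0.52. Tollip and Irak1 had r = 0.69 and rho = 0.58 (exact permutation p = 0.037 and 0.11; adjusted p = 0.21 and 0.43), and with TMM scaling r was 0.18. Without the 2 samples farthest from the median of Tollip it was 0.67.

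The profile most like that of each gene was found by the root mean square difference of centred log2 values over 12 samples. For Irak4 it was Tbk1, a kinase of the TRIF route (0.069), and then Irak1 (0.081), where the median over the other tested genes was 0.29. For Irak1 it was Irak4 (0.081) and then Ifih1, a cytosolic sensor of double-stranded RNA (0.081). For Tollip it was Irak4 (0.093) and then Ifnar1, a chain of the type I interferon receptor (0.095). For Tirap, Cd82 lay at 0.12. Irak2 was most like Icosl (0.079) and Syk (0.081), and Cd14 was most like Phlpp2 (0.073) and Plau (0.076). Myd88 was most like Psmb10, a subunit of the immunoproteasome (0.11), and Tyrobp, an adaptor of myeloid receptors (0.12). For Irak3 the nearest were Ifi35 (0.22) and Fcgr4 (0.22), beside an SD of Irak3 itself of 0.25.

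Promoters are shown for Myd88, in which BDS 21, BDS 25 and BDS 55 were highest, and for Irak1, Irak4 and Tollip as 3 examples of the 5 genes in which they were lowest, each 300 bases from 250 before to 50 after an annotated start (RefSeq, GRCm38.p6; 5′ to 3′ on the strand of the gene). Capitals mark matches on either strand to 6 motifs: the TATA box (TATAAA), the GC box (GGGCGG), the CCAAT box, the core of sites for the myeloid factor PU.1 (GAGGAA), an interferon-response core (a pair of GAAA with any 2 bases between) and a kappa-B core (GGGA and TTCC with any 2 bases between). Irak1 has 2 overlapping windows, of which 1 is shown. The windows are chr9:119339969-119340268 (minus strand) for Myd88, chrX:74023872-74024171 (minus strand) for Irak1, chr15:94543410-94543709 (plus strand) for Irak4 and chr7:141902412-141902711 (minus strand) for Tollip.
Myd88: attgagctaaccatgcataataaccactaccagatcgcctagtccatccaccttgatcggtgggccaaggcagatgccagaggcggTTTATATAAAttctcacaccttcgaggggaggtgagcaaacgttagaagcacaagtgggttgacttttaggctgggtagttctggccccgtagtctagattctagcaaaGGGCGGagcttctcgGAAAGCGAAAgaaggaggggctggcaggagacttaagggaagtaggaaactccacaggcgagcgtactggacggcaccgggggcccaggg
Irak1: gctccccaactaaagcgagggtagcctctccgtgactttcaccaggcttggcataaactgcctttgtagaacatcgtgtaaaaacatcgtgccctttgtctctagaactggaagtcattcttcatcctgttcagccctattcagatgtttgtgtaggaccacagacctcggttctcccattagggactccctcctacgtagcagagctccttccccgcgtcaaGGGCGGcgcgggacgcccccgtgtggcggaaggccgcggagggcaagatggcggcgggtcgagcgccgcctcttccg
Irak4: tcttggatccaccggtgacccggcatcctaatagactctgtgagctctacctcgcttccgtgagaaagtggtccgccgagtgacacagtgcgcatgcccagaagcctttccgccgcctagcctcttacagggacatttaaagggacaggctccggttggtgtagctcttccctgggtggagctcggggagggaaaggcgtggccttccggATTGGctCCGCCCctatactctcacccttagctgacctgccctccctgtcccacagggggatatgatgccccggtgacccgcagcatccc
Tollip: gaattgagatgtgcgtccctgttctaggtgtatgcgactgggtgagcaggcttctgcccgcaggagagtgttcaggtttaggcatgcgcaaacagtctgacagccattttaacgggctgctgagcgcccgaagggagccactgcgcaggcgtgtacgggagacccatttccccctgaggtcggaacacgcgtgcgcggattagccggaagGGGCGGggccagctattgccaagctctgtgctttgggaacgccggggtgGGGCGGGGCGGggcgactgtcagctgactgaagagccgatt

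The Myd88 window held GAAAGCGAAA at bases 211 to 220, a match to the interferon-response core, which 3.44% of all 32851 promoter windows in the table hold, and it also held 2 overlapping matches to TATAAA at bases 87 to 96 (13.6% of windows). Neither motif was found in the windows of Irak1, Irak4 or Tollip, nor in those of Tirap and Irak2, the other genes in which these samples were lowest, which held GGGCGG as well. The 2 windows of Irak3, in which these samples did not stand apart, lacked both motifs too. Their absence was therefore not particular to the genes with low values, and no window of Cd14 was examined. All 4 windows shown held GGGCGG, at 1 place in Myd88, Irak1 and Irak4 and at 3 in Tollip, of which 2 share a base (35.7% of windows). The Irak1 window not shown held 2 matches, the second at its bases 295 to 300. Irak4 also held CCAAT on the minus strand (37.4% of windows). CG dinucleotides numbered 13 in the Myd88 window, against 22 in Irak1, 16 in Irak4 and 23 in Tollip, with a median of 7 over all windows. None of the 4 held GAGGAA (28.3% of windows) or the kappa-B core (1.47% of windows). These matches describe letters only.

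Around the 8 genes, the rest of the pathway was described from 6 lists that held 51 tested genes. At an unadjusted p under 0.05, 6 of them lay on the lower side and 1 on the higher, beside 11.5% and 0.840% of all tested genes, and after adjustment none passed (edgeR, 0 of 51). Below 0 lay 37 of the 51, beside 66.1% of all tested genes, and the counts below 0 in the single lists are to be read against that share. The median log2 fold change was -0.16 over the 51 genes, beside -0.10 over all tested genes. Among 12 receptors, 9 had values below 0 (median -0.22). Tlr9, Tlr3 and Tlr5, at -0.41, -0.39 and -0.36, were those with an unadjusted p under 0.05 (edgeR, adjusted p = 0.167, 0.247 and 0.247), and without BDS 21, BDS 25 and BDS 55 they were at -0.19, -0.16 and -0.12. Among 9 downstream kinases and ubiquitin ligases, 7 were below 0 with a median of -0.08.

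Traf6, the ubiquitin ligase that the IRAK complex hands its signal to, had 1245 ± 218 normalized counts in BDS and 1498 ± 119 in controls (SD, n = 6 each). Its log2 fold change was -0.27 ± 0.11 (SE), with an unadjusted p of 0.0347 and an adjusted p of 0.376 (edgeR), and -0.06 without BDS 21, BDS 25 and BDS 55. Nfkb1, an NF-kB subunit, had 3063 ± 494 in BDS and 3647 ± 185 in controls, with a log2 fold change of -0.25 ± 0.10 (edgeR, adjusted p = 0.337) and -0.08 without those samples. Tnfaip3, a ubiquitin-editing inhibitor of the pathway, had 736 ± 179 in BDS and 961 ± 211 in controls, with a log2 fold change of -0.38 ± 0.17 (edgeR, adjusted p = 0.380) and -0.13 without those samples. In all 3 genes, as in Myd88, Tirap, Tollip, Irak1, Irak2 and Irak4, the value lay nearer 0 without those samples. Those samples held the lowest or highest values of each of these genes, so the direction of the move is fixed in advance.

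The transcription factor list had 6 of 8 values below 0 (median -0.09), the inhibitor list 3 of 5 (median -0.28) and the list of induced products 9 of 13 (median -0.23). Of the induced products, Il6 was the 1 gene higher at an unadjusted p under 0.05, at 23.0 ± 7.85 normalized counts in BDS and 15.0 ± 3.06 in controls (adjusted p = 0.269, edgeR), and it lay above background in 6 of 12 samples. Its raw counts were 12 to 26, and the unadjusted p was 0.133 with limma after background subtraction, 0.0859 without BDS 21, BDS 25 and BDS 55 (edgeR) and 0.0535 without BDS 25 (edgeR). The list of the TRIF route, which bypasses MyD88, had 3 of 4 values below 0 (median -0.05). It did not hold Tlr3, which signals through TRIF and was counted among the receptors. The genes of smallest p in the list were Ikbke and Tbk1, neither at an unadjusted p under 0.05 (edgeR). Ikbke was at 56.3 ± 22.5 in BDS and 92.8 ± 84.1 in controls (log2 fold change -0.72 ± 0.44). Tbk1 was at 1755 ± 303 in BDS and 1862 ± 205 in controls (-0.08 ± 0.12). Without control 44, which had 262 counts of Ikbke, the log2 fold change of Ikbke was -0.08.

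**Figure D5:**
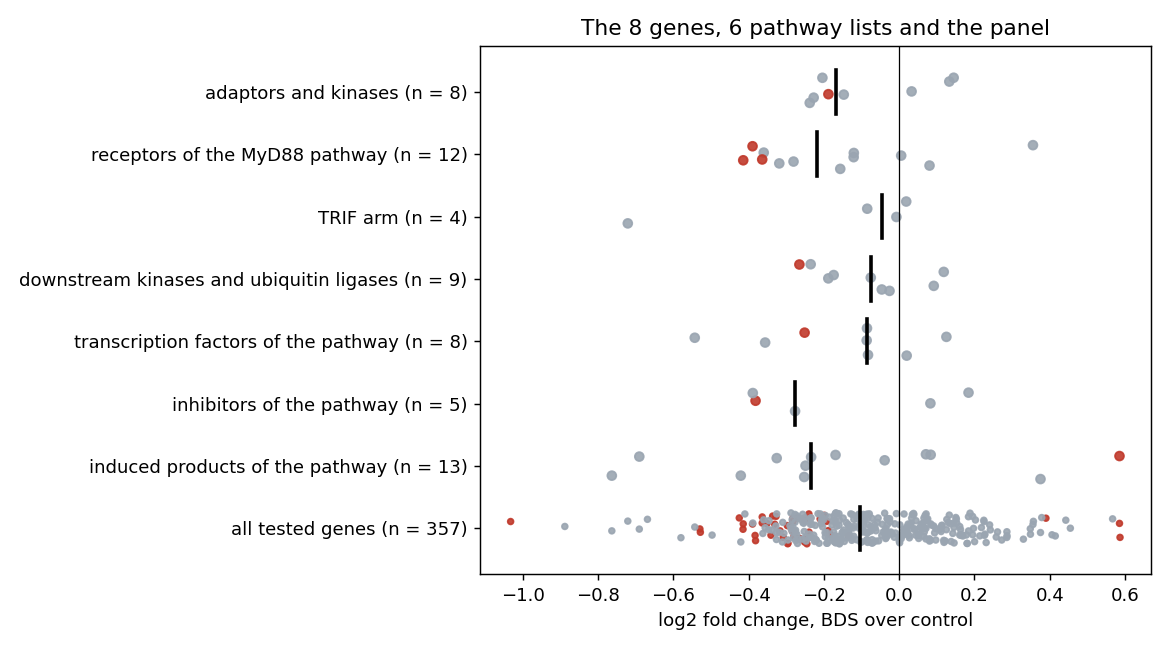
Log2 fold change of BDS over control (horizontal axis) of each tested gene in the 8 adaptors and kinases, the 6 pathway lists and the whole panel; red points have an unadjusted p under 0.05 and the black bar is the median. The median of the 8 genes, -0.17, lies between the panel median of -0.10 and the receptor median of -0.22.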

How the data were processed

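From 2 ng of RNA per sample, cDNA was made, put through 5 PCR rounds and read on a NanoString mouse immune panel, per the labels' protocols. The deposited non-normalized table gives barcode counts, all whole numbers, for 573 probes. The second deposited table holds scores, which are values that the authors scaled by positive-control and housekeeping probes and then rounded, with group means, the percent of samples over background, a linear fold ratio and an unadjusted p-value, per the file headers. The barcode-reading software was not given.

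Each sample was scaled by the geometric mean of its Alas1, Gapdh, Oaz1, Polr1b, Sdha and Tbp counts, relative to all samples. A gene was tested where at least 5 of 12 samples (40%) exceeded background (mean plus 2 SD over 8 negative controls), which kept 357 of 545 genes. BDS and control (6 samples each) were compared with edgeR 4.0.16 (quasi-likelihood, R 4.3.3, these size factors, no covariates) and Benjamini-Hochberg adjustment over all tested genes. Amplified counts are not independent molecules, so counting errors cover counting only. Ratios were compared by two-sided exact permutation tests (NumPy 2.4.6). A correlation over 12 samples was planned and is not given, because 3 samples form a separate cluster; it is given within the other 9.

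Alternatives were TMM, 5 housekeeping genes, DESeq2 1.42.0, limma 3.58.1 with pseudocounts of 1 and 10 or background subtracted, 2 other filters and samples left out; DESeq2 with filtering at 0.1 was added after seeing the data. Named genes were the 8 genes, list genes at an unadjusted p under 0.05 or otherwise the 2 smallest, the 2 nearest profiles per gene and the 3 ratios of smallest p; Irak4 over Irak1, the other steady pairs and the promoters shown were chosen after values were seen. The nearest profile of Tirap and 1 marker gene are not reported here. The genes and lists were chosen with earlier results of these data known. Promoters come from RefSeq (GRCm38.p6) by gene symbol; the count files name no build.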

Additional observations from a re-analysis of the deposited data

Results flagged for a closer look

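Of 42 groups of 6 samples examined, 3 held a sample far from its nearest neighbour relative to the range of the group, which about 1 group in 20 would show by chance. In control 9 the log2 ratio of Irak4 over Irak1 was 0.75, against 0.50 to 0.55 in the other 5 controls, and its Irak1 level of 597 normalized counts was the lowest of the controls. Control 44 had 262 normalized counts of Ikbke, against 39.7 to 81.9 in the other controls. BDS 25 had 38.5 normalized counts of Il6, against 17.3 to 22.6 in the other BDS samples.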

How the results depend on the processing

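No paired analysis was possible because the sample numbers of the BDS and control groups do not overlap. Over 23 alternatives for each of the 8 genes, 179 of 184 log2 fold changes kept their sign and 0 passed the adjusted threshold. The 5 reversed values all came without BDS 21, BDS 25 and BDS 55: Cd14 -0.060, Myd88 -0.041, Tirap 0.00040, Tollip 0.024 and Irak4 0.034. The cause was not tested. Tbk1 also turned sign there (0.092), with TMM (0.0073) and with DESeq2's own size factors (0.0031). The count of the 8 genes at an unadjusted p under 0.05 was 1, and 0 with TMM, 5 housekeeping genes, DESeq2 under either size factor, limma with pseudocounts of 1 or 10 or background subtracted, no filter, and without BDS 21, BDS 25 and BDS 55. It ranged from 0 to 4 with 1 sample left out, the 4 without BDS 7, 2 without control 9, and 0 without any 1 of BDS 21, BDS 25, BDS 55, control 5, control 44 or control 54. The number of genes past the adjusted threshold was 0, 6 with DESeq2 at its default filtering level of 0.1 (Tlr9 among them, adjusted p = 0.043), and 0 to 4 with 1 sample left out. Pathway list genes at an unadjusted p under 0.05 numbered 7, 4 with DESeq2's own size factors, 4 without BDS 21, BDS 25 and BDS 55, and 4 to 15 with 1 sample left out (15 without BDS 7, 4 without BDS 55). For Irak3, raw counts of 31 to 84 limit what can be seen.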
